A study of Homo sapiens with 12 samples.

Results

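Cells of the established human glioblastoma line LN229 were compared after 16 h at 1% oxygen and at 20% oxygen, in both cases with an siRNA that targets no HIF subunit. Of the 12 arrays in the series, 6 were used for the comparison: 3 from cells with a non-targeting siRNA kept in 1% oxygen (hypoxia) and 3 from cells with the same siRNA kept in 20% oxygen (normoxia). All 6 samples had thus been transfected, 24 h after seeding and 48 h before the change of oxygen, so both groups carry whatever transfection itself does. The remaining 6 arrays, hypoxic cells with siRNA against HIF1A or HIF2A, entered the estimate of the spread and the mean levels over the 12 arrays. They were also scaled together with the others where normalization was varied. Changes in the values as deposited came from the 6 control siRNA arrays alone. Genes were taken from probe sets with exactly 1 gene symbol, and where a gene had several its brightest one by the mean of the 12 arrays was used, which gave 14232 genes. Replicates are numbered 1 to 3 in each group. The labels do not state whether each was a culture of its own, and the spread behind the p-values is therefore that of these samples and may be technical. In bulk RNA, fewer cells of a kind and less RNA per cell cannot be told apart.

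Cells sense oxygen through hydroxylases that mark the alpha subunits of the hypoxia-inducible factors (HIF) for destruction by the VHL ubiquitin ligase. When oxygen is short the alpha subunits persist, pair with ARNT and bind DNA at sites with the core ACGTG or GCGTG. Genes reached in this way include those of glycolysis, of vessel growth and of mitochondrial removal, and hypoxic cores are a defining feature of glioblastoma.

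Values are log2 levels, 1 per probe set and array, as deposited. A gene was called higher or lower in hypoxia at an adjusted p under 0.05 in limma, and a called gene is said to have held when it stayed called without each of the 6 arrays in turn. Genes named below as higher or lower held, except where the highest adjusted p of those 6 refits is given. Changes are hypoxia minus normoxia on the log2 scale with limma's standard error (SE) and n = 3 arrays in each group. By these rules 480 genes (3.37%) were higher and 1274 (8.95%) lower in hypoxia, and 257 (1.81%) and 461 (3.24%) of all genes held. Of the called genes, 304 (2.14% of all genes) rose and 831 (5.84%) fell by at least 1.5-fold, while 22 rose and 2 fell by at least 4-fold. The falls were thus more numerous and the largest changes were rises. All 3 hypoxic values lay above all 3 normoxic ones for 12.1% of genes, and below them for 26.3%.

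Both rises and falls were called more often among genes of higher level, and the median change differed with level. Upper quartiles of the hypoxic arrays were 8.50, 8.27 and 8.34, against 8.57, 8.47 and 8.52 for the normoxic arrays, so the deposited values did not share 1 distribution. Arrays correlated at 0.986 to 0.991 within hypoxia, 0.993 to 0.994 within normoxia and 0.979 to 0.987 between the groups. The median change was 0.01 and 0.02 in the 2 lower of 4 equal groups of genes by level, but -0.12 and -0.16 in the 2 upper groups. After quantile normalization the same medians were 0.03, 0.04, 0.01 and -0.01, and 946 genes were called higher and 1200 lower, so that rises made up 44.1% of calls instead of 27.4% with the count of falls nearly as before. For each gene list below other than the cell type markers, the median change is therefore followed by its value after quantile normalization, to be read beside -0.03 and 0.03 over all genes, and counts are given after it where one of them moved by more than 1.5-fold or left 0. A list with 0 calls on one side is not a list without movement there. This was counted without the 10 lists of cell type markers and reference families such as olfactory receptors. In limma, over the other 34 lists with falls and no rise, 23 of 923 genes were higher and 439 lower at an unadjusted p under 0.05. Over the other 12 lists with rises and no fall, 71 of 217 genes were higher and 8 lower by that measure. Over all 14232 genes the counts were 987 and 2663. Of the lists left out, olfactory receptors had 7 of 225 genes higher and 4 lower, fibroblast and pericyte markers 2 of 8 higher and 1 lower, and astrocyte markers 1 of 9 each way.

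**Figure D1:**
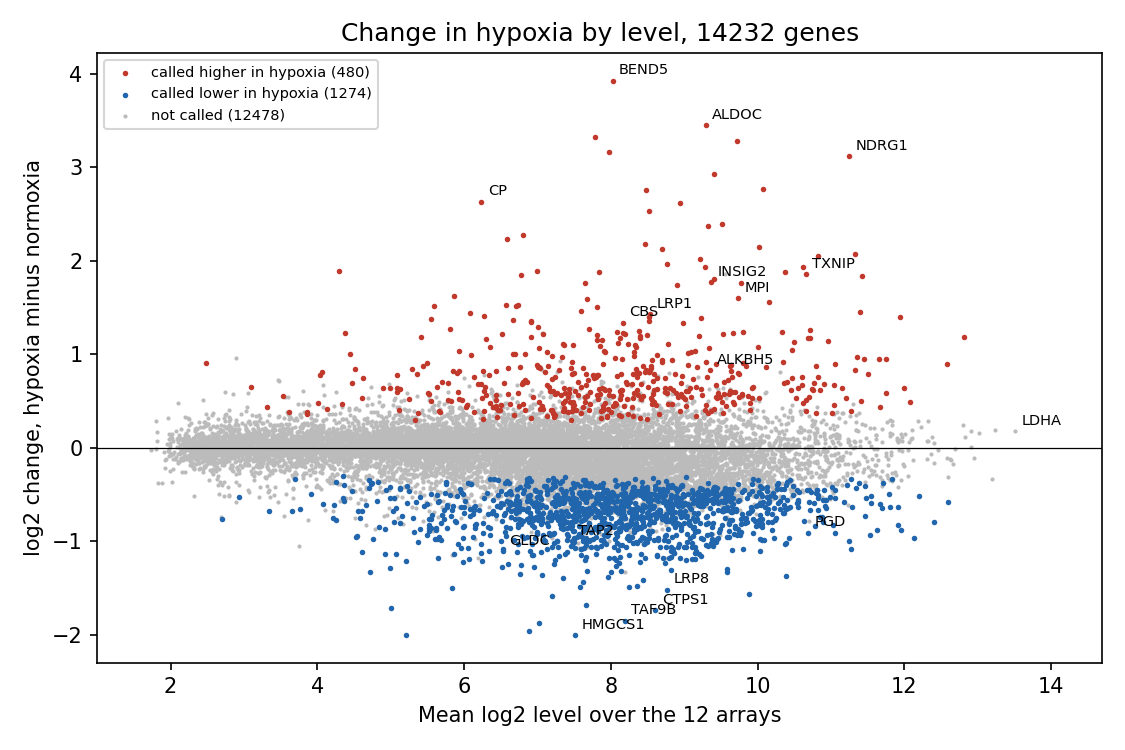
Change in hypoxia (log2 hypoxia minus normoxia, vertical) against mean log2 level over the 12 arrays (horizontal), 1 point per gene for 14232 genes. The 480 genes called higher (red) reach 3.93 and the 1274 called lower (blue) fell by 2.00 or less, with most falls between levels of 6 and 10.

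**Figure D2:**
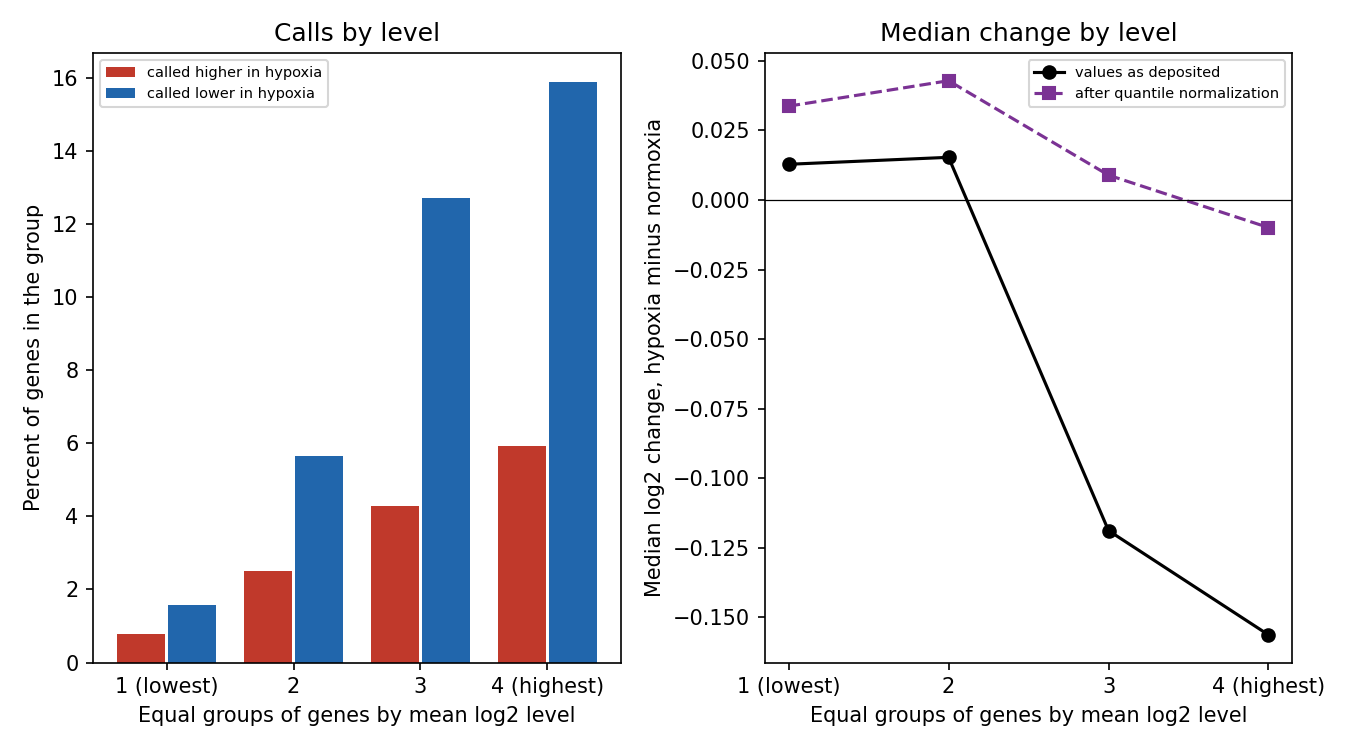
Left, percent of genes called higher (red) and lower (blue) in hypoxia in 4 equal groups of genes by mean log2 level (lowest to highest, horizontal); right, median log2 change in each group as deposited (solid) and after quantile normalization (dashed). Calls to the lower side reach 15.9% in the highest group, and the median of that group moves to -0.01 after quantile normalization.

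Below the 10 largest rises, which BEND5, ALDOC and ANGPTL4 led, the next 30 were of varied function. TXNIP, an arrestin that lowers glucose uptake and binds thioredoxin, measured 11.42, 11.40 and 11.54 in hypoxia and 9.75, 9.56 and 9.50 in normoxia. The lowest hypoxic value was far above the highest normoxic one, and the change was 1.85 (SE 0.11, adjusted p = 4.84e-06). GPR146, a receptor linked to blood cholesterol, had 7.94, 7.94 and 7.62 in hypoxia and 5.28, 5.94 and 5.46 in normoxia, a rise of 2.28 (SE 0.21). LINC01587, a long noncoding RNA, had 7.86, 7.73 and 7.27 in hypoxia against 5.38, 5.42 and 5.38 in normoxia, a rise of 2.23 (SE 0.15). For both genes no hypoxic value came near the normoxic range. The neurotrophic secreted factor NDNF rose by 1.88, the homeobox factor HOXB9 by 1.77, the ubiquitin ligases RNF128 and RNF122 by 1.74 and 1.62, and ANKZF1, which releases stalled chains from ribosomes, by 1.59. NEBL, an actin-binding protein, rose by 1.89 with a wide spread: it measured 5.96, 4.31 and 5.08 in hypoxia against 2.89, 3.34 and 3.44 in normoxia. TCP11L2 also rose, by 1.89.

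Among the falls ranked 11 to 40 were genes of varied function. SLC5A6, the vitamin transporter that carries biotin and pantothenate, measured 7.72, 7.38 and 7.81 in hypoxia and 9.20, 9.02 and 9.14 in normoxia. The groups stood well apart, and the fall was -1.49 (SE 0.14, adjusted p = 9.23e-05). PIK3R3, a regulatory subunit of PI3-kinase, fell by 1.38, the co-chaperone BAG2 by 1.44, and CABLES1, a cyclin-dependent kinase binding protein, by 1.27. Enzymes of glutathione turnover were among them: CHAC2, a gamma-glutamylcyclotransferase, changed by -1.32, and GGCT, of the same activity, fell too. TMEM97, which binds the cholesterol transporter NPC1, changed by -1.32 and CROT, a peroxisomal carnitine acyltransferase, by -1.28. PNP, a purine nucleoside phosphorylase, measured 6.34, 6.30 and 6.18 in hypoxia against 7.55, 7.39 and 7.62 in normoxia, a change of -1.24. Each hypoxic value of PNP lay more than 1 log2 unit under each normoxic value.

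Of 14 measured HIF subunits, hydroxylases and members of the VHL complex, 3 were higher and 0 lower (median 0.03, 0.08 after quantile normalization). HIF1A, which was at 11.72, 11.40 and 11.26 in hypoxia and 11.59, 11.48 and 11.50 in normoxia, overlapped between the groups (-0.06, SE 0.27, adjusted p = 0.931). EPAS1, the gene of HIF-2A, was at 9.74, 9.57 and 9.83 in hypoxia against 8.55, 8.42 and 8.59 in normoxia, and was the 1 member whose call held (1.19, adjusted p = 0.000715). ARNT2, a partner subunit, had 0.52, but lost its call when hypoxia replicate 1, normoxia replicate 1 or normoxia replicate 3 was left out (adjusted p up to 0.0646). The hydroxylase EGLN3 had 0.40, and lost its call without any one array other than normoxia replicate 2 (highest adjusted p 0.130). ARNT (-0.19), VHL (-0.24), EGLN2 (-0.24) and HIF1AN (0.22) were not called.

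Enzymes that remove methyl groups with oxygen as a substrate had rises and no falls among their calls: 8 of 18 were higher, 0 lower, and 6 held (median 0.35, 0.42 after quantile normalization). TET1, which oxidizes methylcytosine in DNA, measured 8.28, 7.33 and 7.33 in hypoxia against 5.88, 5.75 and 5.77 in normoxia (1.85, SE 0.27, adjusted p = 0.00174). Replicate 1 stood above the other hypoxic arrays, and all 3 exceeded normoxia. ALKBH5, a demethylase of adenosine in messenger RNA, measured 9.77, 9.75 and 9.58 in hypoxia against 8.89, 8.85 and 8.85 in normoxia, a tight separation (0.83, SE 0.12). The histone lysine demethylases KDM4C (1.24), KDM3A (1.02), KDM4B (0.74) and KDM2A (0.72) rose as well. TET2 had 0.32 and TET3 0.04, neither of them called.

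The promoters of strongly raised genes were searched for the HIF core because members that move together may share it. The window ran from 250 bases before to 50 after the annotated start, in RefSeq's GRCh38.p14, and 11385 of the measured genes matched an entry. ACGTG, read on either strand and overlapping the E-box CACGTG where both occur, was in 32.2% of 258 promoters of genes higher by at least 1.5-fold. It was in 26.2% of 717 promoters of genes lower by at least 1.5-fold, in 23.3% of 9901 promoters of genes not called, and in 21.6% of all 27305 promoters of the table. The other core, GCGTG, did not follow that order: it was in 49.2% of promoters of genes higher by at least 1.5-fold, 55.2% of those lower by at least 1.5-fold, 44.1% of those not called and 36.3% of the table. Of 17 promoters of genes higher by at least 4-fold, 9 (52.9%) held ACGTG and 6 (35.3%) GCGTG. The binomial 95% interval of the 52.9% ran from 27.8% to 77.0%, and so took in the 32.2%. For ACGTG the intervals of 1.5-fold rises (26.5% to 38.25%) and 1.5-fold falls (23.0% to 29.6%) overlapped. Median GC content in these sets was 66.7%, 64.3%, 63% and 58.3%, so the sets differ in base composition too. Among the 40 largest rises, 30 had a promoter entry and 14 of those (46.7%) held the letters. The first 4 of them by rise are printed with every match to ACGTG, or CACGT for the other strand, in capitals. ALDOC lies at chr17:28576846-28577145 (minus strand), ANGPTL4 at chr19:8363905-8364204 (plus), ENO2 at chr12:6914330-6914629 (plus) and FAM162A at chr3:122383932-122384231 (plus).
ALDOC: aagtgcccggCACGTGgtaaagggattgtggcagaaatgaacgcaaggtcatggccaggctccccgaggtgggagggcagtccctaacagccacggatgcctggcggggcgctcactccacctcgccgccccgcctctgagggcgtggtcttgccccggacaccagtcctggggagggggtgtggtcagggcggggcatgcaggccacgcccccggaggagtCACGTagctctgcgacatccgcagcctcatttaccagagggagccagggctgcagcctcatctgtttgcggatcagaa
ANGPTL4: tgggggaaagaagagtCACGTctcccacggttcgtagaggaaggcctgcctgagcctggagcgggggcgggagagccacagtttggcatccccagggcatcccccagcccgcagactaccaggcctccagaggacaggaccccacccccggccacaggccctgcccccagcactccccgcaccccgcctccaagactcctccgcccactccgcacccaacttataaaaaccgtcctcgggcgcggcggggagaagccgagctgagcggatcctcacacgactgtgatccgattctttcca
ENO2: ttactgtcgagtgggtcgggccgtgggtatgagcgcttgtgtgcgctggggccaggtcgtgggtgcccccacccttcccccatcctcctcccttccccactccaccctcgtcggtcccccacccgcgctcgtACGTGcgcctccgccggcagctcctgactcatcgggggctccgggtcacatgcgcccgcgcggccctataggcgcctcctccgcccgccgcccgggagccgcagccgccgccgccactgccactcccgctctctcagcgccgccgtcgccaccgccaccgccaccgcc
FAM162A: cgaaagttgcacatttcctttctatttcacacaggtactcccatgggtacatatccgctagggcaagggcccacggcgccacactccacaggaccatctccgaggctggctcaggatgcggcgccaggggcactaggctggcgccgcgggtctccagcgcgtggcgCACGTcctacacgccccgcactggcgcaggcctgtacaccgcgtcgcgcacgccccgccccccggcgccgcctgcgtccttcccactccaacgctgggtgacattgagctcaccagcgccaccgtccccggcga
The ALDOC window holds 3 matches, a pair of which overlap in the palindrome CACGTG, beginning 240, 239 and 28 bases before the start. In ANGPTL4, ENO2 and FAM162A the single match begins 234, 118 and 84 bases before it. A match is a description of the letters and was not tested as a binding site.

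The genes of these promoters changed strongly. ALDOC, a brain aldolase of glycolysis, measured 10.63, 10.65 and 10.53 in hypoxia against 7.29, 7.12 and 7.06 in normoxia. ENO2, the neuronal enolase, measured 11.26, 11.34 and 11.08 in hypoxia against 8.43, 8.41 and 8.53 in normoxia. FAM162A, a mitochondrial protein first described as a HIF-1 target, measured 10.36, 10.03 and 9.88 in hypoxia against 7.53, 7.31 and 7.57 in normoxia. In each of the 3 genes the hypoxic arrays were more than 2 log2 units above every normoxic array. ANGPTL4, an inhibitor of lipoprotein lipase, had 9.35, 9.32 and 9.13 in hypoxia and 5.88, 6.09 and 5.85 in normoxia, again without overlap.

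Of 20 genes of glucose transport and glycolysis, 11 were higher, 0 were lower and all 11 held (median 0.69, 0.76 after quantile normalization). The hexokinases, which trap glucose in the cell, rose together: HK2 measured 9.83, 9.99 and 9.93 in hypoxia against 8.15, 8.07 and 8.10 in normoxia (1.81, SE 0.10), and HK1 rose by 1.33. GPI, the isomerase of the next step, rose by 1.39, the phosphofructokinases PFKP and PFKL by 1.26 and 1.23, and PGK1, which makes the first ATP of the pathway, by 1.18. SLC2A1, the glucose transporter GLUT1, rose by 0.79 and the aldolase ALDOA by 0.49. LDHA, which turns pyruvate into lactate, was at 13.58, 13.64 and 13.54 in hypoxia and 13.30, 13.36 and 13.57 in normoxia, with overlapping groups (0.18, adjusted p = 0.457). The LDHA values lie near the top of the scale, whose highest value was 14.27. Whether the arrays respond less there was not tested. ENO1 (0.19) and the pyruvate kinase PKM (0.24) did not pass either, although their hypoxic values lay above the normoxic ones; PKM was called after quantile normalization (0.35, adjusted p = 0.025).

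Branches that leave glucose 6-phosphate and fructose 6-phosphate went in different directions. MPI, which interconverts fructose and mannose 6-phosphates, measured 10.45, 10.41 and 10.27 in hypoxia against 8.76, 8.83 and 8.74 in normoxia, a wide gap (1.60, SE 0.14, adjusted p = 5.06e-05). In the pentose phosphate pathway, which makes ribose and NADPH, 3 of 7 genes were lower, 0 higher, and all 3 held (median -0.28, -0.13 after quantile normalization). PGD, the second dehydrogenase of the pathway, measured 10.36, 10.32 and 10.50 in hypoxia against 11.34, 11.25 and 11.31 in normoxia. None of the values crossed, and the change was -0.91 (SE 0.10, adjusted p = 0.000343). The isomerase RPIA changed by -0.72 and the transketolase TKT by -0.63. In the hexosamine and nucleotide-sugar list 2 of 15 genes were higher and 1 lower (median -0.15; 0.00 after quantile normalization, with 3 higher and 0 lower).

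In glycogen metabolism 7 of 18 genes were higher and 1 lower, of which 6 and 1 held (median 0.12, 0.23 after quantile normalization). The rises covered both synthesis and breakdown. GBE1, the branching enzyme, had 11.37, 11.14 and 11.25 in hypoxia and 10.22, 10.00 and 10.02 in normoxia (1.17, SE 0.13). PYGL, the liver-type phosphorylase that releases glucose units, had 11.40, 11.31 and 11.25 in hypoxia and 10.50, 10.40 and 10.44 in normoxia (0.87, SE 0.11). Neither gene overlapped between groups. PPP1R3B, which targets protein phosphatase 1 to glycogen, rose by 1.47 and PGM1, phosphoglucomutase, by 0.62. GYG1, the glycogenin primer of glycogen, went the other way (-0.93, SE 0.19).

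**Figure D3:**
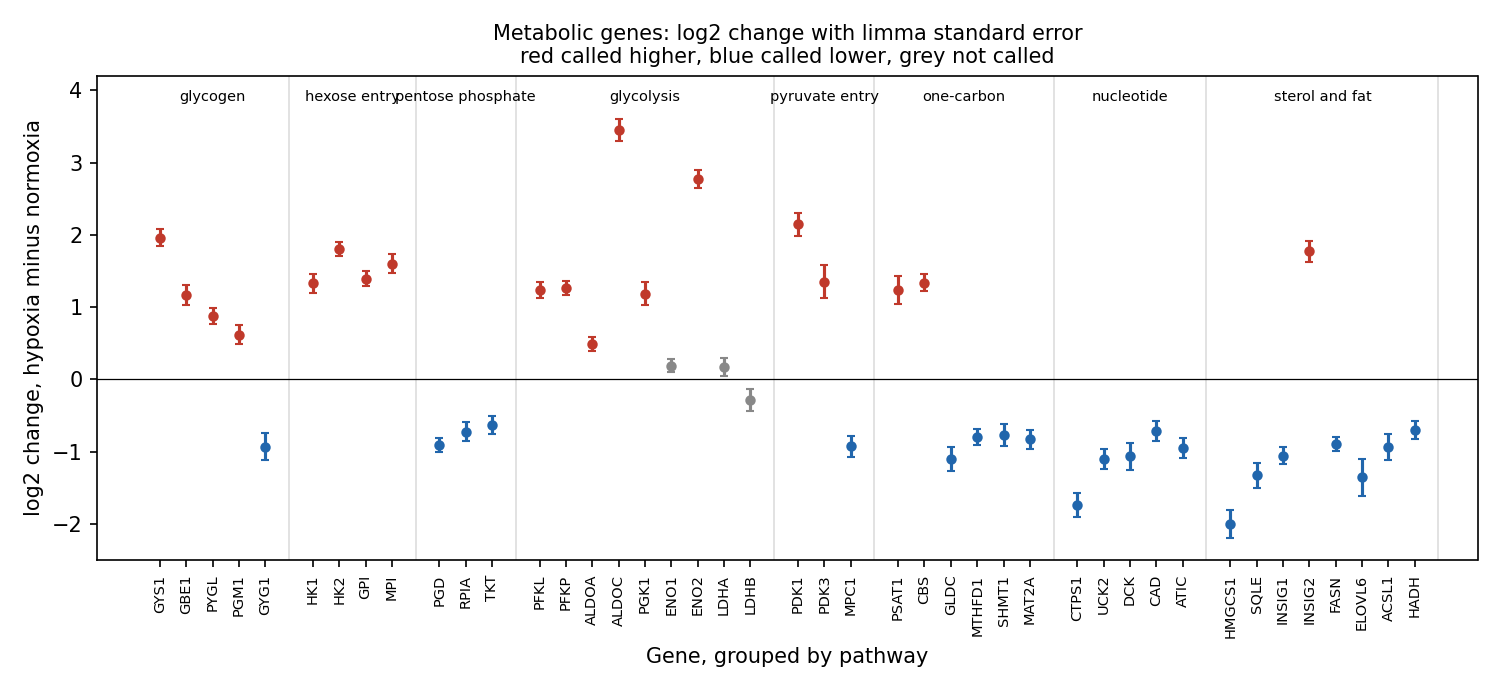
Change in hypoxia (log2 hypoxia minus normoxia, vertical, with limma's SE, n = 3 arrays in each group) of metabolic genes grouped by pathway along the horizontal axis. Red genes were called higher, blue lower and grey not called; MPI at 1.60 stands beside PGD at -0.91, and INSIG2 at 1.77 beside INSIG1 at -1.06.

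At the entry of pyruvate into mitochondria, 2 kinases that switch off pyruvate dehydrogenase rose and a subunit of the carrier fell. PDK3 had 8.07, 7.44 and 7.48 in hypoxia against 6.49, 6.13 and 6.31 in normoxia (1.35, SE 0.22), beside PDK1 at 2.15. PDK4, another kinase of the family, was not called (0.10, adjusted p = 0.784). MPC1, a subunit of the pyruvate carrier, measured 7.51, 6.99 and 7.09 in hypoxia and 8.20, 7.99 and 8.18 in normoxia (-0.93, SE 0.15), with no overlap. Of the 26 genes of pyruvate dehydrogenase and the tricarboxylic acid cycle, 2 were higher and 6 lower, and MPC1 was the 1 fall that held (median -0.33, -0.22 after quantile normalization).

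Genes of the respiratory chain and of mitochondrial gene expression had falls and no rises among their calls. Of 33 genes of complex I and its assembly 6 (18.2%) were lower, of 29 genes of complexes III and IV 4 (13.8%), and of 12 ATP synthase genes 1 (8.33%). Over all genes 8.95% were lower, and 15.9% in the highest of the 4 groups by level, where the median levels of these lists lie. Medians of the lists were -0.26, -0.09 and -0.20, or -0.11, -0.01 and -0.07 after quantile normalization. None of these genes was called higher as deposited (1 of complexes III and IV after quantile normalization). COX7B, a subunit of complex IV, had 9.55, 9.51 and 9.45 in hypoxia and 10.32, 10.33 and 10.48 in normoxia, a change of -0.87. Among 65 mitochondrial ribosomal proteins 13 were lower and 0 higher, and 3 held, led by MRPL18 and MRPL35 at -0.99 each (median -0.39, -0.24 after quantile normalization). TIMM17A, a channel subunit of the inner membrane translocase, measured 9.01, 8.44 and 8.78 in hypoxia against 10.02, 9.68 and 9.73 in normoxia (-1.06, SE 0.20). TFB2M, needed to start transcription of mitochondrial DNA, changed by -0.98. Among 18 genes of mitochondrial DNA maintenance 5 were lower and 0 higher (median -0.46; -0.32 after quantile normalization, with 5 lower and 1 higher), but only TFB2M held.

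Of 11 genes of mitophagy and the BNIP3 family 4 rose, 0 fell and all 4 held (median 0.23, 0.41 after quantile normalization). BNIP3, a mitophagy receptor of the outer membrane, measured 12.66, 11.92 and 11.88 in hypoxia against 10.73, 10.26 and 9.95 in normoxia (1.84, SE 0.28), where replicate 1 was the highest of each group. FKBP8, another receptor of that membrane, rose by 0.54. PINK1 (-0.01) and FUNDC1 (-0.22) were not called. In the general autophagy machinery 1 of 24 genes was higher and 1 lower (median 0.06; 0.15 after quantile normalization, with 7 higher and 1 lower). The fall was ATG3, which conjugates LC3 to lipid (-0.81).

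In the cholesterol list, 11 of 19 genes were lower and 1 higher, of which 7 and 1 held (median -0.51, -0.35 after quantile normalization). The rise and 1 of the falls came from paralogs that both hold the sterol sensor SCAP in the endoplasmic reticulum. INSIG2 measured 10.33, 10.12 and 10.24 in hypoxia against 8.62, 8.45 and 8.31 in normoxia (1.77, SE 0.14, adjusted p = 3.5e-05). INSIG1 measured 8.75, 8.38 and 8.52 in hypoxia against 9.72, 9.52 and 9.58 in normoxia (-1.06, SE 0.12, adjusted p = 0.000345). Neither paralog had overlapping groups. HMGCS1, at 7.12, 6.53 and 6.75 in hypoxia and 9.02, 8.69 and 8.70 in normoxia, and SQLE (-1.33) belong to the pathway that these paralogs restrain. Further enzymes of it that fell were FDPS (-0.86), DHCR7 (-0.77), MVK (-0.58) and LSS (-0.49).

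In lipid droplets and lipoprotein uptake 3 of 18 genes were higher and 4 lower, of which 3 and 3 held (median -0.01, 0.01 after quantile normalization). The calls included 3 receptors of the lipoprotein receptor family. LRP1, an endocytic receptor of many ligands, had 9.22, 8.96 and 8.98 in hypoxia against 7.68, 7.61 and 7.59 in normoxia (1.43, SE 0.11). LRP8, which binds apolipoprotein E and reelin, had 8.17, 7.96 and 8.03 in hypoxia against 9.49, 9.55 and 9.68 in normoxia (-1.52, SE 0.15). Each gap was larger than 1 log2 unit. VLDLR, a relative of LRP8 that shares ligands with it, was at 10.71, 10.48 and 10.44 in hypoxia and 8.25, 8.06 and 8.14 in normoxia (2.40). Among lipid droplet genes, HILPDA, an inhibitor of the lipase ATGL, had 9.81, 9.47 and 9.68 in hypoxia against 7.19, 7.02 and 7.18 in normoxia. ABHD5, which activates the same lipase, fell by 0.85, and LPIN1, a phosphatidate phosphatase, by 0.81. PLIN2, a droplet coat protein, was at 4.42, 4.53 and 4.35 in hypoxia and 4.37, 4.38 and 4.15 in normoxia, overlapping and not called. These PLIN2 values were below the lower quartile of all values (4.77), where the deposited data give no measure of background.

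In fatty acid synthesis and desaturation 10 of 22 genes were lower, 0 higher, and 4 held (median -0.35; -0.20 after quantile normalization, with 8 lower and 3 higher). FASN, the synthase, measured 9.21, 9.08 and 9.03 in hypoxia against 10.00, 10.04 and 9.98 in normoxia (-0.90, SE 0.10), without overlap. ACSL1, which activates fatty acids with coenzyme A, changed by -0.94, the elongase ELOVL6 by -1.36 and the dehydratase HACD2 by -0.85. SCD, the main desaturase, was not called (0.08, adjusted p = 0.866). In fatty acid oxidation 7 of 19 genes were lower and 0 higher (median -0.24; -0.19 after quantile normalization, with 8 lower and 1 higher), and HADH, of the third step, was the 1 that held (-0.70). IDH1, a cytosolic source of NADPH, measured 8.82, 8.65 and 8.74 in hypoxia against 9.74, 9.50 and 9.52 in normoxia (-0.85, SE 0.10). THEM4, an acyl-CoA thioesterase, changed by -1.69.

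Serine, glycine and one-carbon metabolism held changes of both signs, with 4 of 16 genes higher and 5 lower, of which 2 and 4 held (median -0.03, -0.01 after quantile normalization). The rises were near serine and its use in transsulfuration. CBS, which condenses serine with homocysteine, measured 8.69, 8.56 and 8.36 in hypoxia against 7.15, 7.26 and 7.18 in normoxia (1.34, SE 0.11), and PSAT1, of serine synthesis, rose by 1.23. GLDC, of the glycine cleavage system, measured 6.12, 5.75 and 6.18 in hypoxia against 7.26, 6.80 and 7.30 in normoxia (-1.10, SE 0.17). Both genes were free of overlap. MAT2A, which makes S-adenosylmethionine, changed by -0.83, the folate enzyme MTHFD1 by -0.80 and the cytosolic SHMT1 by -0.77. SHMT2, its mitochondrial relative, was not called (0.38, adjusted p = 0.0979), and after quantile normalization was called higher (0.48, adjusted p = 0.0081).

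Of 21 regulators and targets of ATF4, 7 were higher, 0 lower, and 4 held (median 0.25, or 0.37 with 11 higher after quantile normalization). The list is wider than amino acid metabolism, and VLDLR, the lipoprotein receptor described above (2.40), is among the 4. ASNS, asparagine synthetase, had 11.34, 11.19 and 11.10 in hypoxia and 10.39, 10.25 and 10.30 in normoxia (0.89, SE 0.10). TRIB3, a pseudokinase that restrains ATF4, had 8.90, 8.90 and 8.69 in hypoxia and 7.95, 7.89 and 7.82 in normoxia (0.94, SE 0.11). Neither overlapped, while ATF4 itself, at 7.15, 7.19 and 7.06 in hypoxia and 7.05, 7.26 and 6.93 in normoxia, did (0.05, adjusted p = 0.848). Of 26 amino acid transporters 6 were higher and 2 lower, of which 5 and 2 held (median 0.07; 0.14 after quantile normalization, with 10 higher and 2 lower). The rises were SLC1A1, a glutamate and cysteine carrier (1.22), SLC6A6, the taurine carrier (0.94), SLC38A5 (0.86), SLC1A4 (0.67) and SLC1A5, a glutamine carrier (0.59). With its 2 probe sets averaged, SLC1A5 was no longer called (0.35, adjusted p = 0.0737). SLC43A2, a carrier of branched-chain amino acids, changed by -0.74 and the lysosomal SLC36A1 by -0.71. SLC7A11 (0.12) and SLC7A5 (0.19) were not called, though SLC7A5 was after quantile normalization (0.31, adjusted p = 0.0190).

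Nucleotide synthesis was lower on the pyrimidine side, where 8 of 19 genes fell, 0 rose and 5 held (median -0.43, -0.28 after quantile normalization). CTPS1, which makes CTP from UTP, measured 8.25, 7.69 and 7.92 in hypoxia against 9.82, 9.60 and 9.65 in normoxia (-1.74, SE 0.17, adjusted p = 0.000143). The highest hypoxic value was well below the lowest normoxic one. The salvage kinases UCK2 and DCK changed by -1.10 and -1.07, RRM2 of ribonucleotide reductase by -0.80, and CAD, of the first steps of pyrimidine synthesis, by -0.71. In purine synthesis 1 of 17 genes was higher and 2 lower, and the median of -0.14 became 0.02 after quantile normalization, with 2 higher and 2 lower. ATIC, of the last steps, was the member that held (-0.95).

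Genes that make and process RNA had most of their calls on the lower side, as did all genes (3.37% higher, 8.95% lower). In the highest of the 4 groups by level 15.9% of genes were lower, and in the next 12.7%. The median levels of the spliceosome, polymerase II and III, nuclear pore and initiation factor lists lie in the highest group. Of these lists 19.6%, 17.6%, 19.2% and 25% were lower. Ribosome biogenesis, with its median level in the next group, had 32.4% lower. Whether these shares differ was not tested. Ribosome biogenesis and RNA polymerase I had 12 of 37 genes lower, 0 higher, and 7 held (median -0.49; -0.34 after quantile normalization, with 13 lower and 2 higher). MRTO4, an assembly factor of the large subunit, measured 8.75, 8.75 and 8.90 in hypoxia against 9.88, 9.99 and 10.00 in normoxia (-1.16, SE 0.13). Of 31 cytosolic ribosomal proteins 1 was higher and 1 lower, or 2 and 1 after quantile normalization, and the median changed sign with it (-0.06 and 0.03). Translation initiation factors had 8 of 32 lower and 0 higher (median -0.26, -0.13 after quantile normalization, with 7 lower and 2 higher), among them EIF5A2 (-1.03), a factor that helps ribosomes through difficult stretches, and EIF2B3 (-0.95), a subunit of the exchange factor for eIF2. In the spliceosome core 9 of 46 were lower, 0 higher, and 5 held (median -0.34, -0.22 after quantile normalization). LSM10, of the U7 particle that processes histone messages, had 7.87, 7.37 and 7.73 in hypoxia and 8.95, 8.78 and 8.92 in normoxia (-1.23, SE 0.19). GEMIN6, of the complex that loads Sm rings, changed by -1.23, TOE1, a deadenylase that trims small nuclear RNA, by -1.33, and EXOSC9, of the RNA exosome, by -1.04. In RNA polymerases II and III 1 of 17 genes was higher and 3 lower (median -0.29; -0.17 after quantile normalization, with 2 higher and 3 lower). The rise was POLR2A, the largest subunit of polymerase II (0.47), which lost its call without any one array other than hypoxia replicate 3 (highest adjusted p 0.137) and with only the 6 control siRNA arrays, and the falls that held were POLR3K (-0.81) and POLR2D (-0.80). Nuclear pore genes had 5 of 26 lower and 0 higher, of which 1 held (median -0.48; -0.32 after quantile normalization, with 8 lower).

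Among the aminoacyl-tRNA synthetases of the cytosol 3 of 19 were higher and 3 lower (median 0.06; 0.16 after quantile normalization, with 8 higher and 3 lower). AARS1, for alanine, had 11.38, 11.34 and 11.23 in hypoxia against 10.72, 10.65 and 10.69 in normoxia (0.63, SE 0.10). RARS1, for arginine, had 9.93, 9.61 and 9.83 in hypoxia against 10.79, 10.49 and 10.53 in normoxia (-0.82, SE 0.12), and VARS1, for valine, changed by -0.69. The groups of AARS1 and RARS1 were separate and of opposite order. Of 12 mitochondrial synthetases 3 were lower and 0 higher (median -0.35, -0.22 after quantile normalization), with MARS2, for methionine, the 1 that held (-1.01).

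Protein folding and degradation in the cytosol had falls only among the calls, while the endoplasmic reticulum list had calls in both directions. In the proteasome 11 of 29 subunits were lower, 0 higher, and 5 held (median -0.45, -0.30 after quantile normalization). PSMD1, a scaffold of the regulatory particle, measured 9.91, 9.59 and 9.81 in hypoxia against 10.89, 10.64 and 10.73 in normoxia (-0.99, SE 0.15). Among cytosolic chaperones 10 of 25 were lower, 0 higher, and 4 held (median -0.37, -0.29 after quantile normalization). HSPA4, an exchange factor of the HSP70 family, changed by -0.98 and CCT5, of the chaperonin that folds actin and tubulin, by -0.96. HSP90AA1 (-0.16) and HSPA8 (-0.33) were not called. In the list of folding and the unfolded protein response 2 of 28 genes were higher and 1 lower (median 0.03; 0.11 after quantile normalization, with 5 higher and 1 lower). ERO1A, the oxidase that drives disulfide formation, measured 11.30, 10.94 and 10.83 in hypoxia against 9.52, 9.40 and 9.47 in normoxia (1.56, SE 0.21), while HSPA5, the chaperone BiP, was not called (0.21, adjusted p = 0.516).

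**Figure D4:**
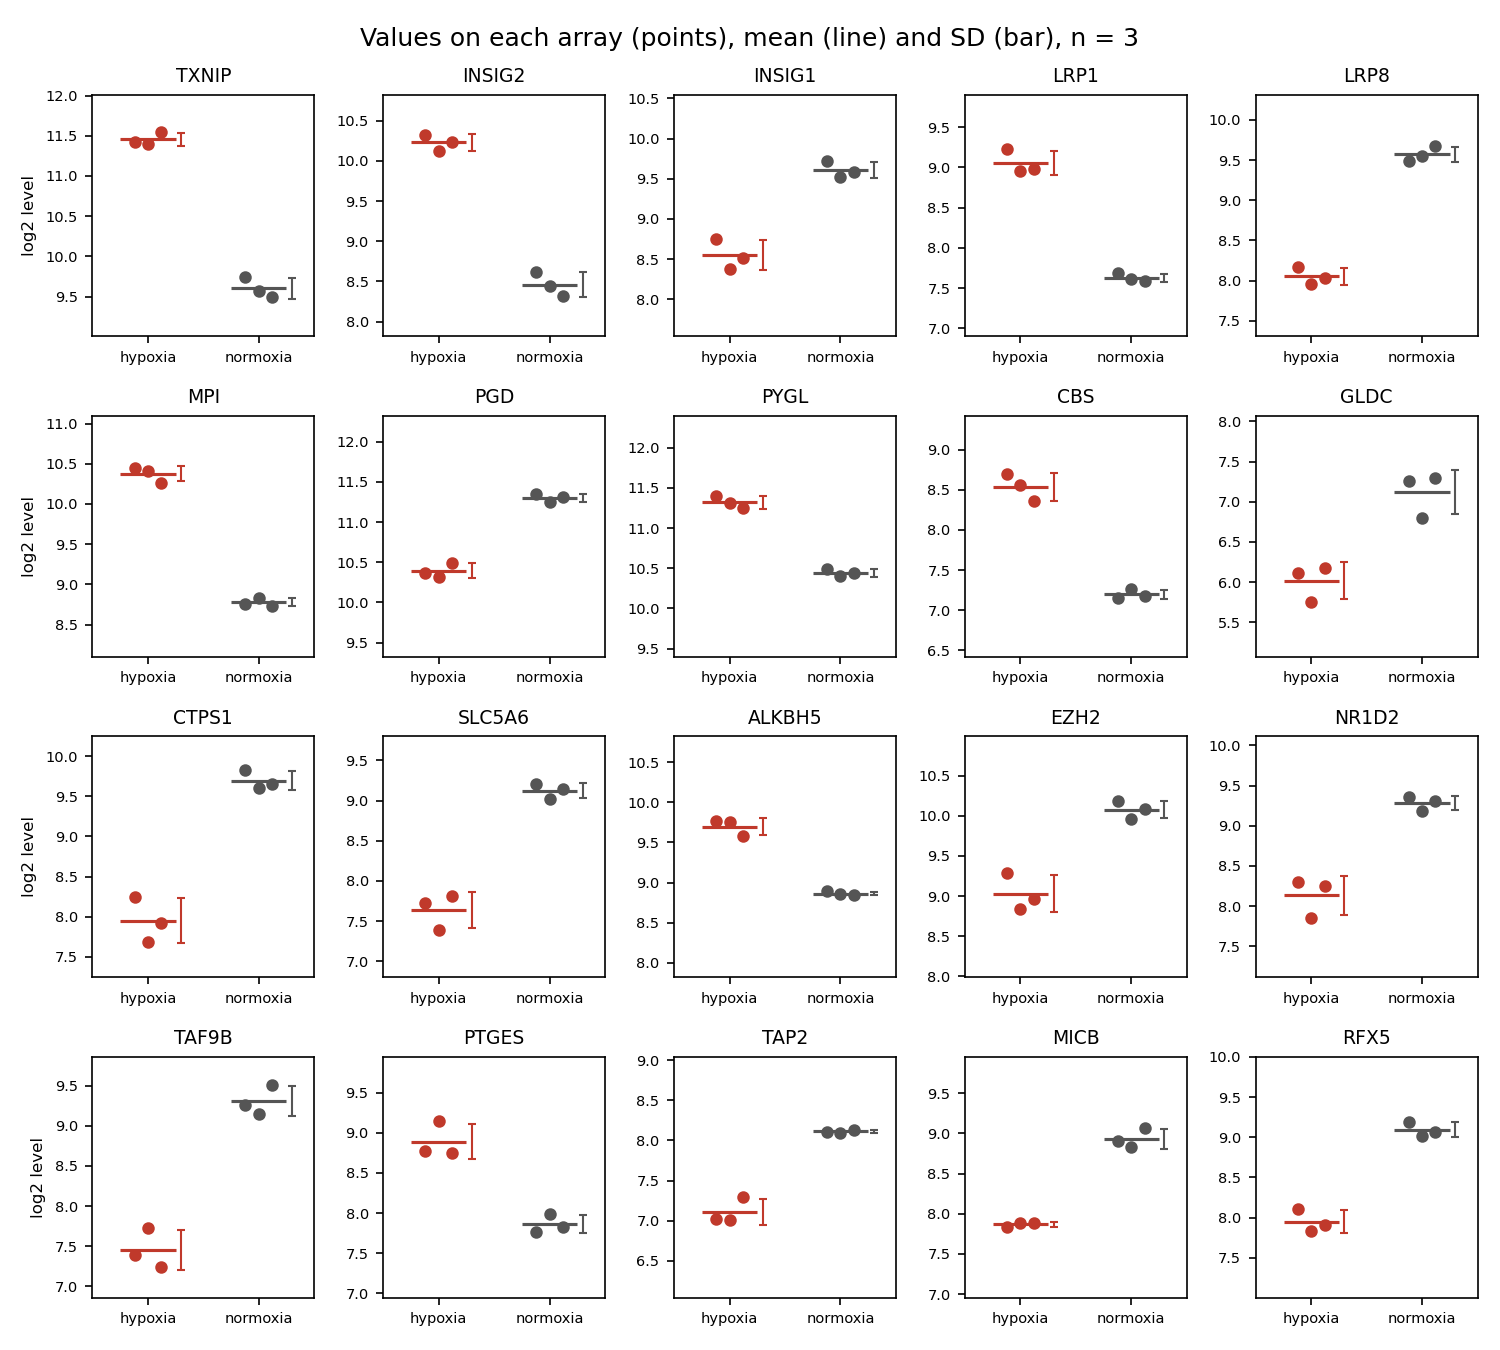
Log2 level (vertical) of 20 genes on each of the 3 hypoxic (left, red) and 3 normoxic (right, grey) arrays, with the mean as a line and the SD as a bar; each panel spans the same number of log2 units. In each of these genes the groups do not overlap, as in INSIG2 at 10.12 to 10.33 in hypoxia against 8.31 to 8.62 in normoxia.

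Replication genes had the largest share of falls among the 87 gene lists: 35 of 47 genes of G1/S and replication were lower, 0 higher, and 23 held (median -0.86, -0.71 after quantile normalization). CDC25A, the phosphatase that activates CDK2, measured 6.84, 6.47 and 6.86 in hypoxia against 8.37, 8.18 and 8.36 in normoxia. CLSPN, the checkpoint adaptor claspin, measured 6.79, 6.14 and 6.49 in hypoxia against 7.97, 7.77 and 7.73 in normoxia. Their groups were separate. Of the helicase and its loaders, MCM10 changed by -1.26, ORC1 by -1.24, CDC45 by -1.13, MCM4 by -1.10 and MCM2 by -0.98. CCNE1, the cyclin of CDK2, changed by -0.99, whereas CCNE2, at -1.49, lost its call when hypoxia replicate 2 or 3, normoxia replicate 1 or normoxia replicate 3 was left out (adjusted p up to 0.0833). The activators E2F2 and E2F3 changed by -1.09 and -1.14. E2F1, at 8.23, 8.30 and 8.30 in hypoxia and 8.61, 8.72 and 8.74 in normoxia, lost its call without any one array (-0.42, highest adjusted p 0.153) and was not called after quantile normalization (-0.26).

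Promoters of this list were searched for 4 spellings of the E2F site on both strands. These were TTTGGCG as the first spelling, TTTCCCG as the second, TTTCGCG as the third and TTTGCCG as the last. Of 40 list genes with a promoter entry, 25 (62.5%) held at least 1. The share was 10.9% for genes higher by at least 1.5-fold, 17.9% for genes lower by at least 1.5-fold, 10.5% for genes not called and 8.69% for all promoters in the table. Since the list was assembled from known replication genes, its share describes the list. The first 2 members by fall with a match are printed with the matches in capitals, CDC25A at chr3:48188368-48188667 and CLSPN at chr1:35769929-35770228, both on the minus strand.
CDC25A: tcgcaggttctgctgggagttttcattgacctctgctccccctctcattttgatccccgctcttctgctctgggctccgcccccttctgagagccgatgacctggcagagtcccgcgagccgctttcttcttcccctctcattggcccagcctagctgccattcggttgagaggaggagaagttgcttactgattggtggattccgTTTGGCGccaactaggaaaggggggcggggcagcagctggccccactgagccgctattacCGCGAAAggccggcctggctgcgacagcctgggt
CLSPN: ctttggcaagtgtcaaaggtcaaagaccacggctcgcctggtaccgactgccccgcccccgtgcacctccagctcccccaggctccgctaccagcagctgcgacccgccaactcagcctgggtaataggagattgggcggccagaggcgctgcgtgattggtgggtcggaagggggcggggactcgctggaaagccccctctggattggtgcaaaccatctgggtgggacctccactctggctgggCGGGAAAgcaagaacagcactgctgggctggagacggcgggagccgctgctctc
CDC25A holds TTTGGCG 44 bases before the start and CGCGAAA, a spelling of the other strand, 16 bases after it. CLSPN holds CGGGAAA, also of the other strand, 4 bases before the start. The motif CCAAT was in 46.6% of promoters of genes lower by at least 1.5-fold, against 35.9% of genes not called.

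In the G2/M and kinetochore list 13 of 51 were lower and 0 higher, and the 3 that held were SPC25, a kinetochore subunit (-1.87), CENPK (-1.08) and ZWINT (-0.89); the median was -0.52, or -0.38 after quantile normalization. CDK1, the mitotic kinase, measured 8.50, 7.91 and 7.73 in hypoxia and 8.85, 8.61 and 8.50 in normoxia (-0.61, adjusted p = 0.326), where the highest hypoxic value only just met the lowest normoxic one. Whether these lists differ in their change was not tested. Among inhibitors of the cycle, CDKN1A (p21) had -0.51 but lost its call without any one array (highest adjusted p 0.161) and after quantile normalization, and CDKN1B (p27) had 0.40 and was not called. SKP2, the ligase subunit that removes p27, measured 8.56, 8.26 and 8.63 in hypoxia against 9.62, 9.61 and 9.73 in normoxia (-1.17, SE 0.18).

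Histone genes of the clusters, which are transcribed in S phase, had 24 of 52 members lower, 0 higher and 13 that held (median -0.62, -0.52 after quantile normalization). H2AC12 had 8.14, 8.18 and 7.43 in hypoxia against 9.32, 9.21 and 9.65 in normoxia (-1.48, SE 0.30). H2BC8 had 7.18, 7.04 and 7.01 in hypoxia against 7.91, 8.15 and 8.38 in normoxia (-1.08, SE 0.17). Both were separate, and H4C1 changed by -1.20. These genes are near-identical copies in part, and the sources used here do not say how probe sets were kept apart, so single members are uncertain. HAT1, the acetyltransferase of new histone H4, changed by -1.30. Of 28 genes of homologous recombination, Fanconi and mismatch repair 11 were lower, 0 higher and 6 held (median -0.58, -0.45 after quantile normalization), led by the exonuclease EXO1 (-1.18) and the Fanconi conjugating enzyme UBE2T (-1.14).

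**Figure D5:**
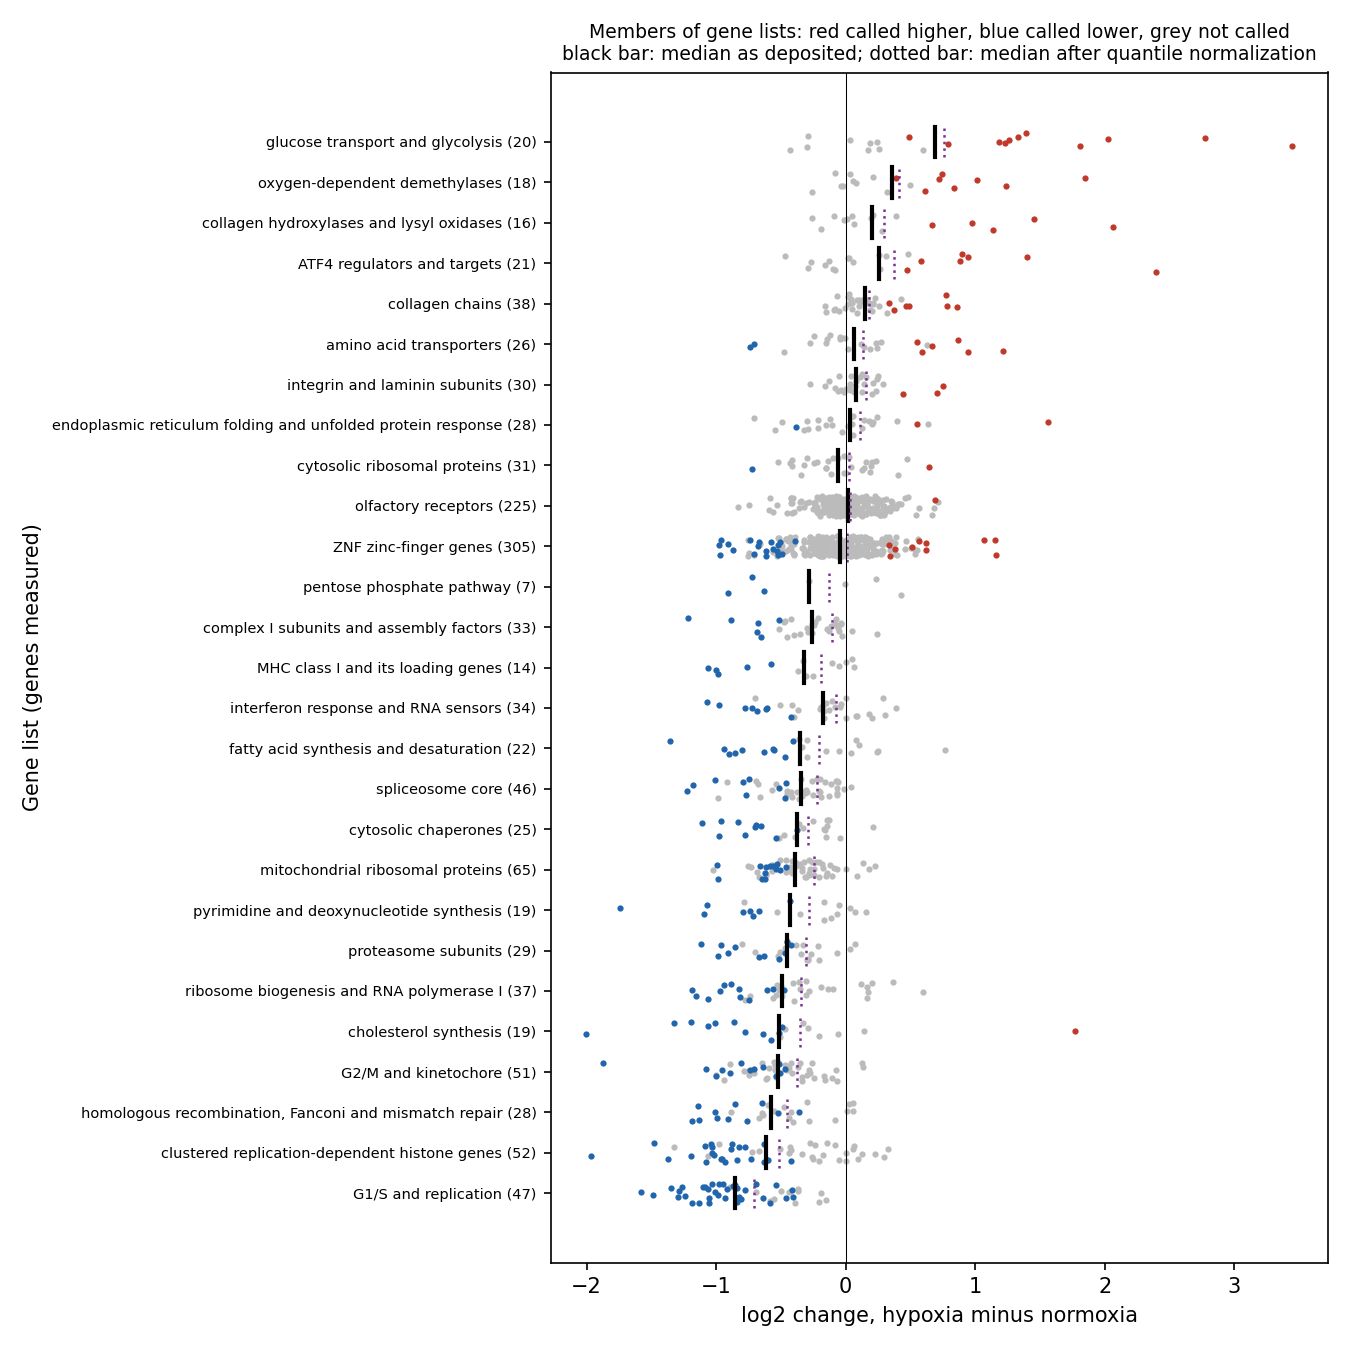
Change in hypoxia (log2 hypoxia minus normoxia, horizontal) of the members of 27 gene lists (vertical, number of genes measured in brackets), red called higher, blue called lower, grey not called, with the median as deposited (black bar) and after quantile normalization (dotted bar). Glycolysis lies highest with a median of 0.69 and G1/S lowest with -0.86; olfactory receptors centre on 0.02.

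Among regulators of transcription, TAF9B, a histone-fold subunit of TFIID, measured 7.40, 7.73 and 7.24 in hypoxia against 9.26, 9.15 and 9.51 in normoxia (-1.85, SE 0.14, adjusted p = 2.45e-05). The gap exceeded 1 log2 unit. The whole list of TFIID and Mediator also takes in some TAF genes outside TFIID, a called one among them. It had 6 of 46 genes lower and 0 higher, or 8 and 4 after quantile normalization (medians -0.20 and -0.08). EZH2, the methyltransferase of Polycomb, had 9.28, 8.84 and 8.96 in hypoxia against 10.18, 9.96 and 10.08 in normoxia (-1.05, SE 0.16). Of 19 clock genes 4 were higher and 1 lower, of which 3 and 1 held (median 0.10, 0.17 after quantile normalization). The repressors BHLHE40 and BHLHE41, which compete with the clock activators, rose by 1.13 and 1.22, and CIART, another repressor, by 0.73. NR1D2, the nuclear receptor REV-ERB beta, had 8.30, 7.85 and 8.25 in hypoxia against 9.36, 9.19 and 9.31 in normoxia (-1.15, SE 0.20). PER1 (0.11), PER2 (0.25) and CLOCK (-0.32) were not called. MXI1, an antagonist of MYC, rose to 8.70, 8.55 and 8.50 in hypoxia, against 7.09, 7.14 and 7.02 in normoxia (SE 0.12). MYC was at 8.59, 8.44 and 8.57 in hypoxia and 9.04, 8.99 and 9.30 in normoxia, apart but not called (-0.58, adjusted p = 0.0808).

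In signalling, lists had calls in both directions. Of 42 receptor tyrosine kinases and adaptors 6 were higher and 3 lower, of which 3 and 0 held; after quantile normalization the counts were 11 and 1 (medians 0.00 and 0.07). SPRY1, a feedback inhibitor of these receptors, measured 8.71, 8.65 and 8.79 in hypoxia against 7.66, 7.37 and 7.77 in normoxia (1.12, SE 0.16). NTRK2, the receptor of BDNF, rose by 0.68 and IGF1R by 0.63, and the other probe set of IGF1R rose too (1.00). EGFR (0.05) and MET (-0.02) were not called. Among TGF-beta and BMP genes 4 of 37 were higher and 5 lower, or 8 and 6 after quantile normalization (medians -0.04 and 0.07). INHBA, the activin subunit, had 9.14, 8.95 and 9.20 in hypoxia against 8.58, 8.46 and 8.50 in normoxia (0.58, SE 0.12), and FST, follistatin, which binds activin, had 9.13, 9.17 and 9.16 in hypoxia against 10.28, 10.06 and 10.14 in normoxia (-1.01, SE 0.14). The 2 genes moved in opposite directions without overlap. In the mTOR and AMPK list 4 of 28 were higher and 2 lower, or 7 and 2 after quantile normalization (medians 0.02 and 0.14), with DDIT4, an inhibitor of mTORC1, at 2.05 and its relative DDIT4L at 0.78. RRAGA, a GTPase that brings mTORC1 to lysosomes, rose by 0.58.

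Secreted factors and matrix genes were described by 7 lists. Of 30 angiogenic factors and VEGF receptors 7 were higher and 2 lower, of which 5 and 1 held, and the median was -0.01 (0.11 after quantile normalization). ADM, the vasodilator peptide adrenomedullin, measured 10.54, 10.47 and 10.49 in hypoxia against 8.72, 8.66 and 8.84 in normoxia (1.76, SE 0.10). EFNA3, an ephrin ligand, had 7.34, 7.27 and 7.11 in hypoxia against 5.73, 5.90 and 5.98 in normoxia (1.37, SE 0.11). NRP2, a co-receptor of VEGF-C and semaphorins, had 8.04, 7.78 and 8.20 in hypoxia against 9.31, 9.19 and 9.18 in normoxia (-1.22, SE 0.15). The 3 genes were each separate between the groups. PGF, a VEGF relative, was not called (-0.36). Of 10 insulin-like growth factor genes and genes named for binding them 3 were higher, 0 lower and 3 held (median 0.09, 0.14 after quantile normalization). IGFBP5 measured 11.48, 11.44 and 11.59 in hypoxia against 9.63, 9.57 and 9.50 in normoxia (1.94), while IGFBP2 (-0.03) and IGFBP4 (-0.02) were not called.

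Of 38 collagen chains 7 were higher and 0 lower, of which 3 held (median 0.15, 0.18 after quantile normalization): COL5A1 (0.78), COL1A1 (0.77) and COL13A1 (0.49). COL1A1 had 8.07, 8.02 and 7.93 in hypoxia against 7.22, 7.32 and 7.16 in normoxia, separate by over 0.5 log2 units. Enzymes that hydroxylate or crosslink collagen had 5 of 16 higher, 0 lower and 4 that held (median 0.20; 0.29 after quantile normalization, with 8 higher). P4HA2, a prolyl hydroxylase subunit, had 12.03, 11.95 and 11.96 in hypoxia against 10.60, 10.49 and 10.48 in normoxia (1.46). The other probe set of P4HA2 was at 0.05 and was not called (adjusted p = 0.924). LOXL2, a lysyl oxidase, rose by 0.98. LOX itself was not called (0.07). Among 30 integrin and laminin subunits 3 were higher, 0 lower and all 3 held, or 7 higher after quantile normalization (medians 0.08 and 0.15), namely ITGB3 (0.75), ITGA5 (0.70) and ITGB4 (0.44). Of 67 matrix proteases and inhibitors 2 were higher and 3 lower, or 6 and 2 after quantile normalization (medians 0.02 and 0.06), and none of the 5 held. Of 34 genes of proteoglycans and glycosaminoglycan synthesis 2 were higher and 4 lower, or 6 and 3 after quantile normalization (medians 0.08 and 0.18). MYH9, the non-muscle myosin heavy chain, rose by 0.75, the 1 call among 29 genes of the actin cytoskeleton and adhesion (median 0.06; 0.14 after quantile normalization, with 4 higher and 1 lower).

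In the list of cytokines, chemokines and prostaglandin synthesis 5 of 39 genes were higher and 4 lower, of which 4 and 2 held (median 0.00, 0.03 after quantile normalization), and 3 of the rises were enzymes of prostaglandin synthesis. PTGS2, the inducible cyclooxygenase, had 9.54, 9.42 and 9.60 in hypoxia against 7.48, 7.30 and 7.26 in normoxia (2.17, SE 0.16). PTGES, the synthase of prostaglandin E, had 8.77, 9.14 and 8.75 in hypoxia against 7.76, 7.98 and 7.83 in normoxia (1.03, SE 0.14), and PTGS1 rose by 0.82. All values of both genes were apart. The cytokine IL1A rose by 1.38, averaging 6.27 in hypoxia and 4.90 in normoxia. CCL2, a chemokine for monocytes, measured 9.31, 8.96 and 9.08 in hypoxia against 10.70, 10.71 and 10.64 in normoxia (-1.56), and TNFAIP6, an anti-inflammatory matrix protein, changed by -1.25. IL1B (0.19), IL6 (-0.23) and CXCL8 (-0.06) were not called.

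Antigen presentation and RNA sensing had falls and no rises among their calls. In the MHC class I list, which also holds NKG2D and checkpoint ligands, 5 of 14 genes were lower, 0 higher and 4 held. Its median was -0.32, or -0.19 after quantile normalization. The 4 were TAP1, TAP2, MICB and PDCD1LG2. TAP2, of the peptide transporter, measured 7.03, 7.01 and 7.30 in hypoxia against 8.11, 8.09 and 8.13 in normoxia. It fell by 1.00 (SE 0.11, adjusted p = 0.000293), and its partner TAP1 changed by -0.98. MICB, a stress ligand of the NKG2D receptor, had 7.83, 7.89 and 7.88 in hypoxia against 8.90, 8.83 and 9.07 in normoxia (-1.07, SE 0.14). No value of either gene crossed. B2M, the light chain of class I, was not called (0.06, adjusted p = 0.892), nor was the heavy chain HLA-E (-0.11). In the class II list 4 of 11 were lower and 0 higher, of which RFX5, a factor that drives class II promoters (-1.14), and HLA-DMB (-0.87) held (median -0.32, -0.23 after quantile normalization). HLA-DRA had -0.41 and lost its call without any one array (highest adjusted p 0.130). Of 34 interferon response genes and RNA sensors 8 were lower, 0 higher and 4 held (median -0.17; -0.08 after quantile normalization, with 9 lower and 1 higher). TLR3, an endosomal sensor, changed by -1.07, IFIT3 by -0.78, IFI44L by -0.68 and the RNA helicase IFIH1 by -0.61. The checkpoint ligand PDCD1LG2, counted above in the class I list, measured 5.37, 5.19 and 4.99 in hypoxia against 5.98, 5.79 and 6.05 in normoxia (-0.76, SE 0.12).

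In iron, copper and haem handling 2 of 31 genes were higher and 3 lower (median -0.06, 0.00 after quantile normalization). CP, the copper oxidase ceruloplasmin, measured 7.58, 7.11 and 7.61 in hypoxia against 4.95, 4.76 and 4.69 in normoxia (2.63), and BLVRA, biliverdin reductase, changed by -0.65. TFRC (-0.13) and HMOX1 (-0.13) were not called. Among NRF2 targets and antioxidant enzymes 6 of 30 were lower, 0 higher (7 and 2 after quantile normalization), and the peroxiredoxin PRDX6 was the 1 that held (-0.91; list median -0.14, -0.02 after quantile normalization). In the BCL2 family and caspases 6 of 24 were lower and 0 higher (4 and 1 after quantile normalization), with the antiapoptotic BCL2 the 1 that held (-0.95), and the list median changed sign with the scaling (-0.13, 0.03 after quantile normalization). Of 18 carbonic anhydrases and pH regulators 1 was higher, CA12 (0.53), and 1 lower (median 0.02, 0.04 after quantile normalization). Of 14 adenosine and purinergic genes 3 were lower and 0 higher (median -0.06; 0.00 after quantile normalization, with 3 lower and 1 higher), among them the ATP-gated channel P2RX7 (-0.79) and the nucleoside transporter SLC29A1 (-0.58).

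The label of the cells was checked against markers of glial cells and of others. VIM and NES, filament proteins of glioma cells, averaged 12.39 and 9.87 in hypoxia, and 12.10 and 10.27 in normoxia. NES was called lower (-0.41), lost its call without hypoxia replicate 2 or normoxia replicate 1 (highest adjusted p 0.0576), and was not called after quantile normalization. GFAP, the astrocyte filament, was at 6.18, 6.43 and 6.29 in hypoxia and 6.11, 6.28 and 6.31 in normoxia, and the astrocyte channel AQP4 at 3.16, 3.26 and 3.35 in hypoxia and 3.35, 3.10 and 3.05 in normoxia. AQP4 was thus below the lower quartile of all values (4.77), where the deposited values give no measure of background; levels of different probe sets are not ranked here. S100B, the 1 called of 9 astrocyte markers, had 10.16, 10.12 and 10.11 in hypoxia against 10.90, 10.66 and 10.72 in normoxia (-0.63). PTPRC, EPCAM and PECAM1, of blood, epithelial and endothelial cells, lay between 2.09 and 3.88 on the 6 arrays. The lists that hold them were higher as a whole. Their median level per array was 4.80 to 5.15 for microglia and macrophage, 4.23 to 4.53 for epithelial and 5.18 to 5.41 for endothelial markers.

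Markers of other cell types did not move with the condition to the point of a call, apart from fibroblast and pericyte markers. None of 8 neuron, 7 oligodendrocyte, 11 microglia and macrophage, 9 endothelial or 7 epithelial markers was called in limma. Over these 42 genes 3 were higher and 2 lower at an unadjusted p under 0.05. Of all genes 3.37% were called higher and 8.95% lower. The median levels of these 5 lists lie in the 2 lower of the 4 groups by level. There 0.787% and 2.50% of genes were called higher, and 1.57% and 5.65% lower. With such shares, 0 calls among 42 genes says little about the markers. All hypoxic values lay above the normoxic ones for 3 of the 7 epithelial markers, against 12.1% of all genes, and for at most 1 marker in each other list. Of 8 fibroblast and pericyte markers 2 were higher: COL1A1, and RGS5 (0.76), which lost its call without any one array (highest adjusted p 0.0788). Over the 8 markers the median level per array was at most 7.05 in hypoxia and 7.06 in normoxia, and at least 6.99 on each of the 6 arrays. As families little used outside nose or hair, 225 olfactory receptors had 1 higher and 0 lower (median 0.02, 0.04 after quantile normalization) and 34 keratin-associated proteins 0 calls (median 0.01, 0.03 after quantile normalization; 1 higher and 2 lower at an unadjusted p under 0.05). Of 305 zinc-finger genes named ZNF, 10 (3.28%) were higher and 19 (6.23%) lower, with a median of -0.04 (0.01 after quantile normalization). The share lower was under that of all genes (8.95%). It was near that of the second lowest group by level (5.65%, with 2.50% higher), where the median level of this list (6.64) lies. ZNF713 (1.16), ZNF667 (1.15) and ZNF160 (1.07) rose. Among 201 long noncoding and host-gene RNAs 5 were higher and 1 lower (median 0.03, 0.06 after quantile normalization).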

How the data were processed

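RNA of LN229 cells was measured on Affymetrix whole-transcript arrays, biotin-labelled per the labels' protocols. The authors deposited log2 values, 1 per probe set and array, with base 2 inferred from the range of 1.14 to 14.27; the submitters' processing notes name Partek and hg18, and the sources used here do not give the background correction, summarization or normalization. Of 22011 probe sets, 14432 had 1 gene symbol, 2408 several and 5171 none; 14404 gene IDs were found in RefSeq, and 0 symbols needed an update.

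Group means were fitted over all 12 arrays with limma 3.58.1 in R 4.3.3, with eBayes and Benjamini-Hochberg adjustment over 14232 genes, without rescaling or a filter. The fit was tested on simulated data. The number of arrays limits the precision. Alternatives were quantile, cyclic loess and median scaling, the 6 arrays alone, a replicate block, a filter on low levels, averaging of probe sets, an intensity trend, array weights, adjustment over all probe sets, and leaving out each array.

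The members and the 87 gene lists were chosen with earlier results of these data known. Named genes are HIF1A and EPAS1, the 40 largest rises and falls, and in each list up to 8 called members and up to 6 others by level, with all members of lists of 12 or fewer. The other named genes were chosen after their values were seen: ALDOA, ATF4, CCNE1, CDC45, CDK1, CDKN1B, E2F1, E2F2, EGFR, EGLN2, FAM13A, HMOX1, IDH1, IL1B, IL6, KLHL23, LBR, LOX, LSS, MCM2, MCM4, MET, MVK, PDK4, PER1, PGF, PGK1, PLIN2, SH3PXD2A, SKP2, SLC2A1, TET2, TET3 and VHL.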

Additional observations from a re-analysis of the deposited data

Results flagged for a closer look

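Probe sets that the report does not use also carried changes in hypoxia. Of 2408 probe sets with several gene symbols, 67 were called higher and 156 lower in hypoxia with limma. Of 5171 probe sets with no gene symbol here, 49 were called higher and 186 lower. They stand outside the comparison of single-symbol genes and were given no gene name. No group of 4 or more samples exists in the comparison, so single arrays far from their group were not looked for.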

How the results depend on the processing

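Genes called higher numbered 480 as reported, 946 after quantile normalization, 1059 after cyclic loess, 767 with arrays centred on their medians and 945 with array weights. Genes called lower numbered 1274 as reported, 2794 with array weights and 1947 with only the 6 control siRNA arrays. Leaving out 1 control siRNA array gave 279 to 357 higher and 503 to 1075 lower; the lowest counts came without normoxia replicate 3 (279 higher) and hypoxia replicate 2 (503 lower), and such fits have fewer samples. For the other moves the cause was not tested. Deviations of equal replicate numbers correlated at 0.466, 0.368 and 0.0978, in each case the highest value for that hypoxic replicate. Normoxia replicate 3 alone correlated best with another number, hypoxia replicate 2 (0.178). The labels do not say whether equal numbers share a batch, this check does not decide it, and the main fit used no pairing. With the number as a replicate block, 454 genes were higher and 1266 lower. Medians of 12 of 87 gene lists changed sign after quantile normalization. Of the 206 named genes with a call, 195 held without each array, 203 were called after quantile normalization, 202 after cyclic loess and 204 with the replicate block. Their direction changed once: FAM13A, lower as reported, was at 0.20 with its probe sets averaged. The shares of promoters with ACGTG (32.9%) and with an E2F spelling (16.7%) over all called genes stayed near 32.2% and 17.9%. Without background or detection values in the deposited data, changes near the lower end of the scale cannot be set against noise of the arrays.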

Other observations

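Where a gene had a second single-symbol probe set, that probe set gives another reading of the same gene. There were 200 such probe sets for 197 genes, 18 of them for called genes, of which 12 had the same sign and 5 were called themselves. The genes with a call on both probe sets, chosen after their values were seen, were IGF1R (0.63 and 1.00), SH3PXD2A (1.00 and 0.81), KLHL23, at -1.14 on the one used while it fell by 1.00 on the other, FAM13A, which fell by 1.00 on the one used and was at 1.40 on the other, and LBR (-0.75 and 0.74). In FAM13A and LBR the probe sets were called in opposite directions, so a single value for these genes depends on which is used, and averaged LBR was no longer called (-0.01, adjusted p = 0.983). On the probe sets used, LBR lost its call when hypoxia replicate 2, normoxia replicate 1 or normoxia replicate 3 was left out (adjusted p up to 0.0909 in limma) and SH3PXD2A without hypoxia replicate 1 or normoxia replicate 1 or 2 (0.0576).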
